A study of Sus scrofa with 11 samples.

Results

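The ligands, receptors and decoy receptor of transforming growth factor beta (TGF-β) were followed in the *M. semimembranosus* (SM) of Duroc gilts fed a low protein (LP) or a high protein (HP) diet. The members were the genes TGFB1, TGFB2, TGFB3, TGFBR1, TGFBR2, TGFBR3, ACVR1, ACVR2A, ACVR2B and BAMBI. Every probe set that the platform annotation assigns to 1 of these symbols alone was taken, and TGFBR2 entered through the probe set that the study's own list of differentially expressed genes names so. This gave 20 of the 23999 probe sets that are not controls, 8 for the ligands, 10 for the receptors and 2 for BAMBI. TGFB2 had 4 probe sets, TGFBR1 had 3, and TGFBR2, TGFBR3 and ACVR2B had 1 each. The probe sets of a gene are lettered here by their mean level over the 11 arrays, a for the brightest, and the plots give their array identifiers.

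The LP group held 5 gilts fed 128 g/kg crude protein and 7 g/kg lysine, and the HP group held 6 gilts fed 217 g/kg crude protein and 13.0 g/kg lysine. All were about 10 weeks old at the start, and the 2 diets had the same energy content and were fed for 63 days of the finisher stage. RNA of every gilt was hybridised to an Affymetrix array of its own, and replicates are therefore pigs. Blocks by starting weight were used when diets were assigned, and the pigs were penned in 2 groups. Block, pen and slaughter date are not given per pig, so none of them could be adjusted for. Their part in a diet difference was not tested. The values are log2 levels per probe set, and a level serves only to compare pigs for the same probe set.

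TGF-β is made as a latent protein that is held in the extracellular matrix until integrins, thrombospondin or proteases release it. The free ligand binds a pair of type II receptors, which phosphorylate type I receptors, and these phosphorylate SMAD proteins that move to the nucleus and control transcription. BAMBI resembles a type I receptor without the kinase and so dampens the signal. In skeletal muscle the pathway is known for restraining myoblast differentiation, for the deposition of collagen and for holding back the differentiation of preadipocytes.

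One LP pig stood apart in the members. LP 5 was the highest or the lowest of the 11 arrays in 11 of the 20 member probe sets, but in 17.7% of all probe sets. These 11 belong to TGFB2, TGFBR1, BAMBI, TGFB1 and TGFB3 only, and several are probe sets of the same gene. In TGFB3 b and BAMBI b the LP 5 level was below background. HP 4, the array most often at an extreme over all probe sets (36.6%), was so in 6 of the 20. The values left without single pigs stand beside the member calls they end.

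Of the 19 probe sets assigned by annotation, 6 passed an unadjusted p of 0.05 or less in the limma fit (31.6%), against a background of 5.11% over all 23999 probe sets. The 3 that were higher in LP pigs, against 2.15% of all probe sets, belong to TGFB2 (Entrez gene 397084). The 3 that were lower in LP pigs, against 2.97% of all, belong to TGFB3, ACVR1 (100152307) and BAMBI (449001), and the TGFB3 probe set was not above background. An exact permutation test over the pigs called 4 of the 19, against 5.4% of all probe sets, the 3 of TGFB2 and the 1 of TGFB3. Several of these probe sets carry the same gene symbol, and the calls come from 4 of 9 genes. Whether probe sets of 1 gene read the same transcript was not tested. By the brightest probe set of each gene 2 of 9 genes were called, against 4.73% of 6765 genes. These were TGFB2, higher in LP pigs as were 1.57% of all genes, and BAMBI, lower in LP pigs as were 3.16%. The brightest TGFB2 probe set, TGFB2 a, was so only through its LP levels. In the HP pigs TGFB2 b was brighter (mean 8.05 against 7.90), and by TGFB2 b the gene was not called. After Benjamini-Hochberg adjustment over all probe sets none was left, with 0.916 as the smallest adjusted p of a member, and none of the 23999 probe sets had an adjusted p under 0.05. No member probe set had LP and HP pigs that did not overlap, where 0.579% of all probe sets had. Since each array read whole muscle, fewer cells of a type cannot be told apart from less RNA per cell. Without LP 5 only 1 of the 6 calls was left, that of TGFB2 d, while 1198 of all probe sets were then called, against 1227 with all pigs.

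**Figure D1:**
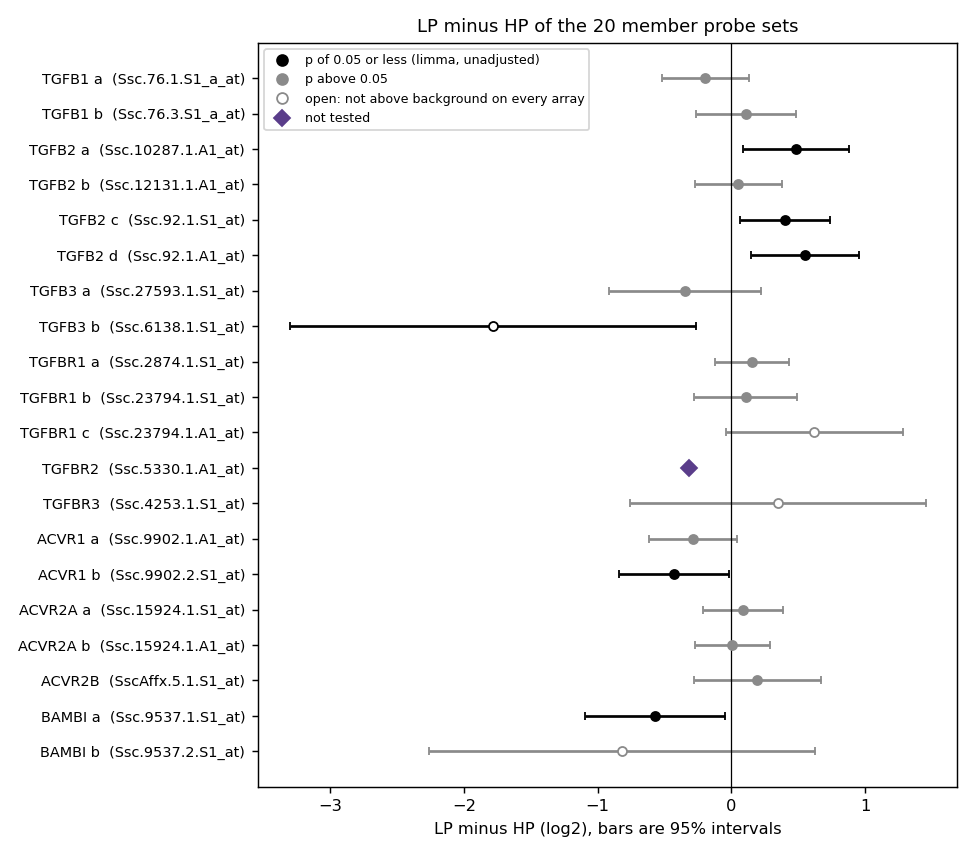
LP minus HP on the log2 scale (x axis) for each of the 20 member probe sets (rows), with 95% intervals from limma over 5 LP and 6 HP pigs; black marks p of 0.05 or less, grey a larger p, open circles probe sets not above background on every array, and the diamond the TGFBR2 probe set, which was not tested. The TGFB2 probe sets at 0.49, 0.40 and 0.55 lie right of 0 with their intervals, and the brighter BAMBI probe set at -0.57 lies left of 0.

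TGFB2, the isoform known for its roles in heart and eye development, was higher in LP pigs by 3 of its 4 probe sets. By TGFB2 a, the brightest, the LP pigs had log2 levels of 8.26, 8.54, 8.31, 8.02 and 8.80, and the HP pigs had 7.55 at the lowest, 7.86 at the median and 8.31 at the highest. All LP pigs lay above the HP mean and 3 lay above every HP pig, with LP 5 the highest of all and LP 1 and LP 4 within the HP range. Of those 3, LP 3 was all but level with HP 2, the highest HP pig (8.3099 against 8.3094). The means were 8.38 ± 0.30 in LP and 7.90 ± 0.28 in HP pigs (SD, n = 5 and 6), a 1.40-fold difference (log2 0.49, SE 0.18, limma p = 0.0207, exact permutation p = 0.0238). Without LP 5 the difference was 0.38 and no longer called.

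TGFB2 d gave the largest difference of the 4. Its LP levels were 7.63, 8.13, 7.84, 7.64 and 8.40, and its HP levels were 6.92 at the lowest, 7.46 at the median and 7.71 at the highest. Again 3 LP pigs, LP 2, LP 3 and LP 5, were above every HP pig, and the other 2 fell between the HP pigs. The means were 7.93 ± 0.33 in LP and 7.38 ± 0.27 in HP pigs, 1.47-fold apart (log2 0.55, SE 0.18, limma p = 0.0123, exact permutation p = 0.00866). It is the only one of the 6 called member probe sets that kept its call whichever pig was left out, with differences between 0.43 and 0.63.

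TGFB2 c showed LP levels of 7.72, 8.27, 7.83, 7.61 and 8.33, and HP levels of 7.40 at the lowest, 7.59 at the median and 7.67 at the highest. The HP pigs were close together and 4 of 5 LP pigs lay above all of them, the exception being LP 4. The means were 7.95 ± 0.33 in LP and 7.55 ± 0.10 in HP pigs, 1.32-fold apart (log2 0.40, SE 0.15, limma p = 0.0238, exact permutation p = 0.00649). The call was lost without LP 2 (0.32) or LP 5 (0.30), and without HP 1, HP 2 and HP 4 together (0.40), the arrays with the highest hybridisation spike-in levels. TGFB2 a and TGFB2 c are also among the differentially expressed probe sets that the study drew from the same pigs, so these calls are not independent of the study's.

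The remaining probe set, TGFB2 b, did not pass. Its LP levels were 8.22, 8.19, 8.11, 7.70 and 8.30, and its HP levels were 7.71 at the lowest, 8.13 at the median and 8.25 at the highest. LP and HP pigs covered almost the same range, with means of 8.10 ± 0.24 in LP and 8.05 ± 0.21 in HP pigs and a difference of 0.05 (95% interval -0.27 to 0.38, exact permutation p = 0.716). Whether this probe set responds differently from the others was tested on the difference within each pig, a comparison chosen after the values were seen. LP minus HP was larger by 0.43 for TGFB2 a, by 0.50 for TGFB2 d and by 0.35 for TGFB2 c, and all 3 exact permutation tests had an adjusted p of 0.0519, so a difference between the probe sets did not pass.

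**Figure D2:**
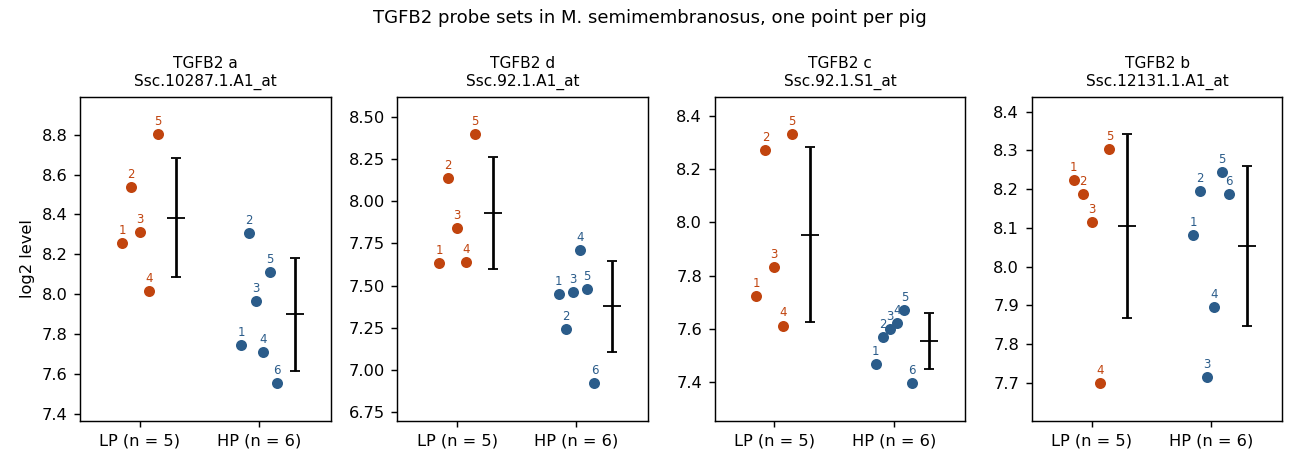
Log2 level (y axis, a scale of its own in each panel) of the 4 TGFB2 probe sets in each pig, LP left and HP right; numbers are the replicates and the bars beside the points are mean ± SD. In the first 3 panels 3, 3 and 4 of the 5 LP pigs lie above all HP pigs, and in the fourth the groups cover the same range.

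With the diet means removed, TGFB2 d and TGFB2 c moved together over the 11 arrays (Pearson r = 0.843, permutation p = 0.0013, adjusted p = 0.0091 over 14 pairs of probe sets of 1 gene; Spearman rho = 0.909, p = 0.00049, adjusted p = 0.00686). The r was 0.723 without LP 5 and LP 2, the arrays farthest from the median. TGFB2 a followed TGFB2 c with r = 0.765 (permutation p = 0.00336, adjusted p = 0.0157; rho = 0.727, p = 0.0144, adjusted p = 0.0502), and with r = 0.603 without LP 5 and HP 6. Its r with TGFB2 d was 0.561 (permutation p = 0.0967, adjusted p = 0.193; rho = 0.518, p = 0.135, adjusted p = 0.237), and 0.0021 without LP 5 and HP 6, so what there was of this relation rests on those 2 pigs. TGFB2 b, which did not pass, had r = 0.492 with TGFB2 a (permutation p = 0.147, adjusted p = 0.229; rho = 0.654, adjusted p = 0.106), 0.401 with TGFB2 c (permutation p = 0.311, adjusted p = 0.41; rho = 0.427, adjusted p = 0.348) and 0.0854 with TGFB2 d (permutation p = 0.805, adjusted p = 0.939; rho = 0.127, adjusted p = 0.788). Within the HP pigs its r was 0.187 with TGFB2 a, -0.238 with TGFB2 c and -0.505 with TGFB2 d, and without the arrays farthest from the median it was 0.622, 0.168 and -0.241 in the same order.

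TGFB1, the isoform that most cell types and platelets release, did not pass by either probe set. By TGFB1 a the LP levels were 7.00, 7.10, 7.04, 7.15 and 6.42, and the HP levels were 6.86 at the lowest, 7.19 at the median and 7.22 at the highest. LP 5 was far below the other LP pigs, HP 1 was far below the other HP pigs, and the rest of both groups lay close together. The mean was 6.94 ± 0.30 in LP and 7.14 ± 0.14 in HP pigs (difference -0.20, 95% interval -0.52 to 0.13, exact permutation p = 0.180). TGFB1 b averaged 6.17 ± 0.32 in LP and 6.06 ± 0.22 in HP pigs (difference 0.11, 95% interval -0.27 to 0.48, exact permutation p = 0.526). The TGFB1 probe sets did not move together over the arrays (r = 0.0238, permutation p = 0.947, adjusted p = 0.947; rho = 0.0273, p = 0.952, adjusted p = 0.952), and r was -0.751 without LP 5 and HP 1.

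TGFB3, the isoform known for its role in palate fusion, was read by 1 probe set above background and 1 near it. TGFB3 a had LP levels of 7.35, 7.32, 6.48, 6.82 and 6.95, and HP levels of 6.68 at the lowest, 7.30 at the median and 8.08 at the highest. One LP pig lay above the HP mean and the groups overlapped over most of their range, with means of 6.99 ± 0.36 in LP and 7.33 ± 0.50 in HP pigs (difference -0.35, 95% interval -0.92 to 0.22, exact permutation p = 0.238). TGFB3 b exceeded the highest negative control on 0 of 5 LP arrays and 1 of 6 HP arrays, HP 3. Its difference passed (limma p = 0.0255, exact permutation p = 0.0325), but levels below background have no reliable order and no fold is given. That call was lost without LP 4 or LP 5, and with low values raised to the 20th percentile of the array.

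A rise in one isoform and not in another needs a test of the difference between them. The isoforms were therefore subtracted within each pig, each read by its brightest probe set over the 11 arrays. For TGFB2 this was TGFB2 a (mean 8.12, against 8.08 for TGFB2 b), but only through the LP pigs. In the HP pigs TGFB2 b was the brighter (mean 8.05 against 7.90), so this choice was not independent of the diet difference tested. TGFB2 minus TGFB1 was 1.25, 1.44, 1.27, 0.86 and 2.39 in the LP pigs, and 0.36 at the lowest, 0.82 at the median and 1.13 at the highest in the HP pigs. Only LP 4 fell within the HP range. The means were 1.44 ± 0.57 in LP and 0.76 ± 0.27 in HP pigs, so TGFB2 gained 0.68 on TGFB1 (exact permutation p = 0.0152, adjusted p = 0.0422 over 3 pairs of isoforms). The exact test kept an unadjusted p of 0.05 or less whichever pig was left out, with a gain of 0.44 (p = 0.0429) without LP 5.

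TGFB2 minus TGFB3 was 0.90, 1.21, 1.82, 1.19 and 1.85 in the LP pigs, and -0.11 at the lowest, 0.55 at the median and 1.43 at the highest in the HP pigs. LP 3 and LP 5 were above every HP pig and the other LP pigs lay below HP 5. TGFB2 gained 0.83 on TGFB3, with means of 1.40 ± 0.42 in LP and 0.57 ± 0.52 in HP pigs (exact permutation p = 0.0281, adjusted p = 0.0422). The unadjusted p moved just above 0.05 without LP 3 or LP 5 (0.72 and exact p = 0.0524 each) and without HP 3 (0.70), HP 4 (0.76) or HP 6 (0.81), with an exact p of 0.0556 each. TGFB3 minus TGFB1 averaged 0.05 ± 0.46 in LP and 0.20 ± 0.48 in HP pigs (exact permutation p = 0.593).

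The gains depend on which probe set stands for a gene. Read by TGFB2 b, TGFB2 gained 0.25 on TGFB1 (exact permutation p = 0.310) and 0.40 on TGFB3 (exact permutation p = 0.264). With TGFB1 read by its dimmer probe set the gain of TGFB2 was 0.38 (exact permutation p = 0.147). Read by TGFB2 d or TGFB2 c, TGFB2 gained 0.75 or 0.59 on TGFB1 and 0.90 or 0.75 on TGFB3, with exact permutation p between 0.00866 and 0.0303. These readings were added after the values were seen. Over the mean of all probe sets of each gene, some at background, TGFB2 gained 0.42 on TGFB1 (exact permutation p = 0.0455) and 1.44 on TGFB3 (exact permutation p = 0.0152).

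**Figure D3:**
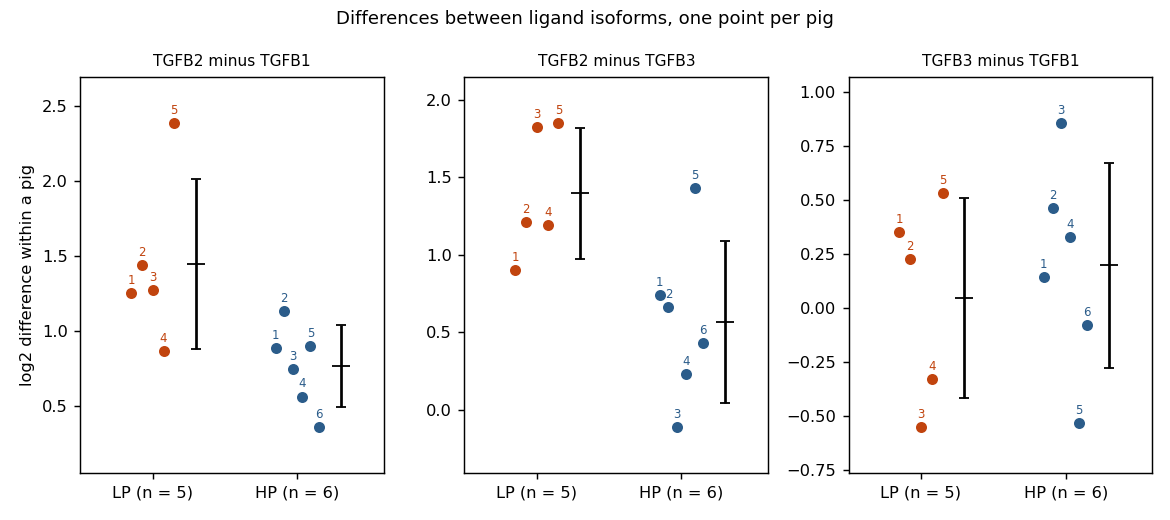
Log2 difference between 2 ligand isoforms within each pig (y axis, a scale of its own in each panel), each gene read by its brightest probe set, LP left and HP right; numbers are the replicates and the bars are mean ± SD. For TGFB2 minus TGFB1 4 of 5 LP pigs lie above all HP pigs, for TGFB2 minus TGFB3 2 of 5 do, and for TGFB3 minus TGFB1 none does.

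Among the receptors that bind TGF-β itself, none of the 4 annotated probe sets passed. TGFBR1, the type I receptor kinase, had LP levels of 9.98, 9.75, 9.87, 10.08 and 10.16 by its brightest probe set, TGFBR1 a, and HP levels of 9.60 at the lowest, 9.84 at the median and 10.01 at the highest. LP 4 and LP 5 were above every HP pig and the others overlapped, with means of 9.97 ± 0.16 in LP and 9.81 ± 0.18 in HP pigs (difference 0.16, 95% interval -0.12 to 0.43, exact permutation p = 0.160). TGFBR1 b differed by 0.11 (95% interval -0.28 to 0.49, exact permutation p = 0.615), and by -0.046 without LP 5. TGFBR1 c was above background on 5 of 5 LP and 5 of 6 HP arrays and averaged 4.30 ± 0.33 in LP and 3.68 ± 0.64 in HP pigs (difference 0.62, 95% interval -0.04 to 1.28, limma p = 0.0629, exact permutation p = 0.0974). It passed without HP 3 (0.71), HP 5 (0.77) or HP 6 (0.72), and after quantile normalization (0.58), whereas the difference was 0.32 with the spike-in level or the 3′ minus 5′ signal of actin as a covariate and 0.060 without HP 1, HP 2 and HP 4 together.

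TGFBR2, the type II receptor that binds the ligand first, is described without a test, because its probe set entered by the study's list of calls on these pigs. It had LP levels of 10.48, 10.53, 10.28, 10.21 and 10.41, and HP levels of 10.44 at the lowest, 10.63 at the median and 11.10 at the highest. All LP pigs were below the HP mean and 3 of them below every HP pig, with HP 4 the highest of all. The means were 10.38 ± 0.13 in LP and 10.70 ± 0.24 in HP pigs, a difference of -0.31. TGFBR3, the co-receptor betaglycan that presents TGFB2 to the type II receptor, was above background on 4 of 5 LP and 4 of 6 HP arrays and averaged 3.67 ± 0.77 in LP and 3.33 ± 0.99 in HP pigs (difference 0.35, 95% interval -0.76 to 1.45, exact permutation p = 0.530).

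Of the 5 activin receptor probe sets 1 passed, the dimmer one of ACVR1, against 5.11% of all probe sets. ACVR1 is a type I receptor known chiefly for bone morphogenetic protein signals. By ACVR1 b it had LP levels of 6.38, 6.76, 5.98, 5.81 and 6.14, and HP levels of 6.34 at the lowest, 6.69 at the median and 6.90 at the highest. LP 3, LP 4 and LP 5 were below every HP pig, whereas LP 2 was above the HP mean. The means were 6.21 ± 0.37 in LP and 6.64 ± 0.24 in HP pigs (log2 -0.43, SE 0.19, limma p = 0.0433, exact permutation p = 0.0563). The call was lost when LP 3 (-0.37), LP 4 (-0.33), LP 5 (-0.41), HP 1 (-0.40), HP 3 (-0.43), HP 5 (-0.38) or HP 6 (-0.38) was left out.

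The brighter ACVR1 probe set, ACVR1 a, had LP levels of 9.83, 10.11, 9.39, 9.46 and 9.72, and HP levels of 9.73 at the lowest, 9.98 at the median and 10.15 at the highest. The same 3 LP pigs were below every HP pig, and LP 2 was again among the high HP pigs. Its means were 9.70 ± 0.29 in LP and 9.98 ± 0.16 in HP pigs (difference -0.28, 95% interval -0.61 to 0.04, limma p = 0.0837, exact permutation p = 0.0693), and it passed without LP 2 (-0.39). The ACVR1 probe sets moved together with the diet means removed (r = 0.821, permutation p = 0.00819, adjusted p = 0.0287; rho = 0.754, p = 0.0179, adjusted p = 0.0502), with r = 0.707 without LP 3 and LP 4.

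ACVR2A and ACVR2B, the type II receptors shared by activins and myostatin, did not pass. ACVR2A by its brighter probe set averaged 7.46 ± 0.13 in LP and 7.37 ± 0.24 in HP pigs (difference 0.09, 95% interval -0.21 to 0.39, exact permutation p = 0.481). Its other probe set differed by 0.01 (95% interval -0.27 to 0.29, exact permutation p = 0.955), a value whose sign changed with the setting. ACVR2B averaged 5.26 ± 0.13 in LP and 5.07 ± 0.47 in HP pigs (difference 0.19, 95% interval -0.28 to 0.67, exact permutation p = 0.385).

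BAMBI was lower in LP pigs by its brighter probe set. BAMBI a had LP levels of 5.53, 6.18, 5.98, 6.71 and 5.46, and HP levels of 6.09 at the lowest, 6.65 at the median and 6.82 at the highest. LP 1, LP 3 and LP 5 were below every HP pig, whereas LP 4 was among the high HP pigs. The means were 5.97 ± 0.51 in LP and 6.54 ± 0.30 in HP pigs, so the level was lower in LP by 1.49-fold (log2 -0.57, SE 0.24, limma p = 0.0360, exact permutation p = 0.0519). The call was lost without LP 1 (-0.46), LP 3 (-0.57), LP 5 (-0.44), HP 2 (-0.52), HP 3 (-0.55), HP 4 (-0.54) or HP 6 (-0.52), and without HP 1, HP 2 and HP 4 together (-0.54). It was also lost with array weights (-0.50) and with the spike-in level (-0.55) or the 3′ minus 5′ signal of actin (-0.42) as a covariate.

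The dimmer BAMBI probe set, BAMBI b, was above background on 1 of 5 LP arrays, LP 4, and on 5 of 6 HP arrays. Its groups overlapped and it did not pass (exact permutation p = 0.275), and since most of its LP levels were below background no difference or order is given. LP 4 was also the highest LP pig by BAMBI a.

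**Figure D4:**
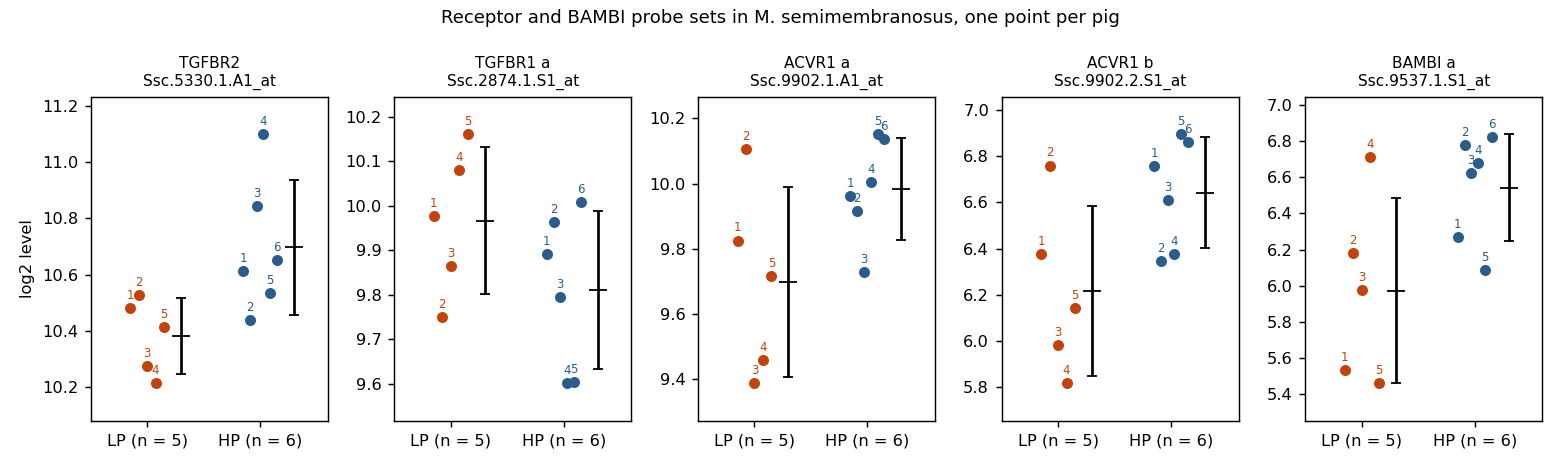
Log2 level (y axis, a scale of its own in each panel) of the TGFBR2 probe set, the brightest TGFBR1 probe set, both ACVR1 probe sets and the brighter BAMBI probe set in each pig, LP left and HP right; numbers are the replicates and the bars are mean ± SD. For TGFBR2, ACVR1 and BAMBI 3 of 5 LP pigs lie below all HP pigs, and for TGFBR1 2 of 5 lie above them.

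**Figure D5:**
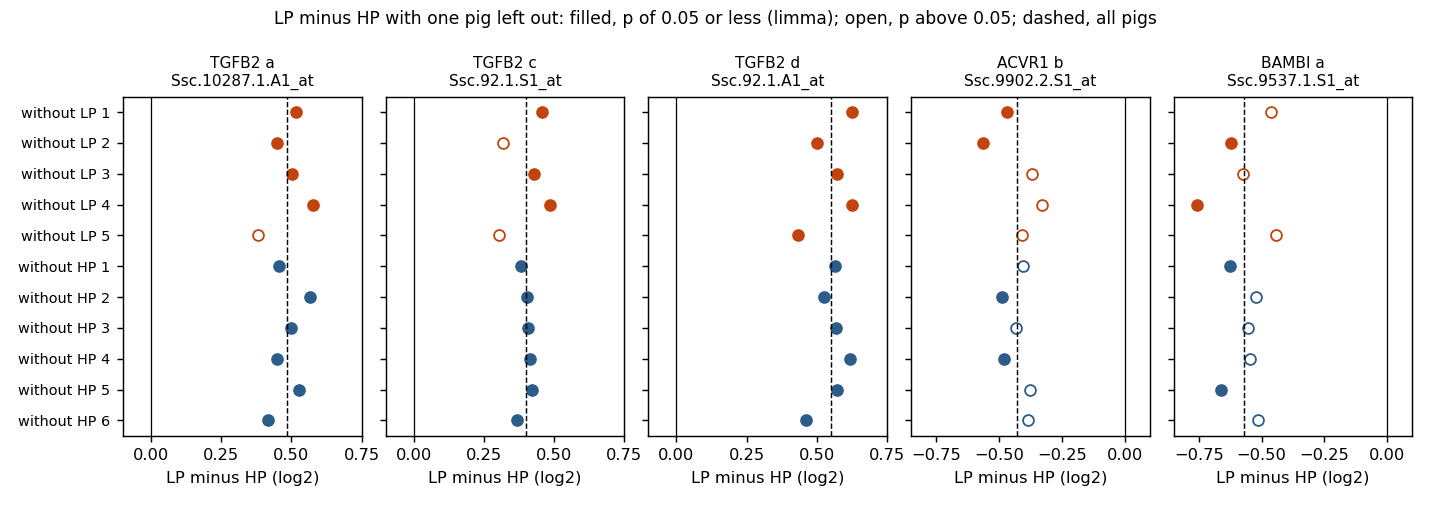
LP minus HP on the log2 scale (x axis) of the 5 called probe sets above background on all arrays, refitted with the pig named on the y axis left out; filled circles have a limma p of 0.05 or less, open circles a larger p, and the dashed line is the value with all pigs. The probe set TGFB2 d is filled in all 11 rows, and ACVR1 and BAMBI are filled in 4 of 11 each.

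As groups, ligands and receptors had mean diet differences near 0. The 3 ligand genes, each by its brightest probe set, averaged 7.44 ± 0.15 in LP and 7.46 ± 0.23 in HP pigs, and the receptor genes 7.74 ± 0.19 in LP and 7.71 ± 0.14 in HP pigs. The mean ligand difference was -0.02, with TGFB2 above 0 and TGFB1 and TGFB3 below it. The mean receptor difference was 0.03, and 0.10 without TGFBR2. Both means include TGFBR3, which was not above background on every array. Its difference of 0.35 (pooled SD within diets 0.90) was the largest of the receptor genes. Means without TGFBR3 were not computed, so the sign of the receptor difference is not settled. TGFBR3 also enters the ligands minus receptors values. Ligands minus receptors averaged -0.30 ± 0.19 in LP and -0.25 ± 0.28 in HP pigs, a difference of -0.049. Without TGFBR2, which entered by the study's calls, they averaged 0.23 ± 0.23 in LP and 0.34 ± 0.31 in HP pigs, a difference of -0.12, and no p is given for a score over the members. The pooled SD within diets of the 15 annotated probe sets above background on all arrays ran between 0.17 and 0.45.

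The wider pathway was read through 6 lists covering SMAD proteins, SMAD corepressors and ubiquitin ligases, proteins of TGF-β latency and the matrix, other ligands and antagonists of the family, other receptors, and known targets. Of 96 listed genes 48 were measured, of which 0 were higher and 2 lower in LP pigs in the limma fit (4.17%, against 4.73% of all genes). This count moved with the fit, and genes called lower numbered 7 of 48 (14.6%, against 3.68% of all genes) with a trended robust prior and 7 of 35 (against 3.83% of all genes) with dim probe sets left out, but 1 of 48 (2.08%, against 2.25%) without HP 1, HP 2 and HP 4. The median difference over the 48 was -0.12, against -0.04 over all 6765 genes, and 31 of the 48 lay below 0, against 3887 of all 6765. Both called genes came from the 12 measured genes of latency and the matrix, and both are also among the study's own calls on these pigs. None of the 27 other probe sets of these genes passed in limma, and by the exact test 1 of THBS1 did (-0.43, exact permutation p = 0.0411).

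MMP2, a gelatinase that cleaves matrix and can release latent TGF-β, had log2 levels of 9.06, 9.08, 8.71, 8.71 and 8.97 in the LP pigs, and 9.20 at the lowest, 9.43 at the median and 9.66 at the highest in the HP pigs. Every LP pig was below every HP pig. The means were 8.90 ± 0.18 in LP and 9.43 ± 0.17 in HP pigs (log2 -0.53, SE 0.13, limma p = 0.00157, exact permutation p = 0.00216). ITGB5, the integrin β5 chain that binds latent TGF-β, had 8.52, 8.83, 8.88, 8.76 and 7.89 in the LP pigs, and 8.93 at the lowest, 9.21 at the median and 9.41 at the highest in the HP pigs. Here too the groups did not overlap, with LP 5 far below the rest. The means were 8.58 ± 0.41 in LP and 9.18 ± 0.19 in HP pigs (log2 -0.60, SE 0.19, limma p = 0.00899, exact permutation p = 0.00216, the smallest that 462 splits allow). With adjusted p over all probe sets of 0.701 for MMP2 and 0.908 for ITGB5, neither passed the adjusted threshold. Both stayed called whichever single pig was left out (-0.58 to -0.48 for MMP2 and -0.68 to -0.43 for ITGB5), and the call of ITGB5 was lost without HP 1, HP 2 and HP 4 together (-0.50).

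In the other lists no gene passed in limma. The smallest p in each was that of SMAD3, which carries the receptor signal (0.25, exact permutation p = 0.310), TGIF1, a SMAD corepressor (-0.37, p = 0.0606), BMPR1B, a bone morphogenetic protein receptor (-0.20, p = 0.305), CDKN1A, a cell cycle inhibitor induced by TGF-β (-0.40, p = 0.0498), and INHBB, an activin subunit that was not above background on any array (p = 0.104). CDKN1A thus passed the exact test and not limma (limma p = 0.0570 against exact p = 0.0498), and so did DCN, the matrix proteoglycan decorin of the latency list (-0.28, limma p = 0.0525, exact permutation p = 0.0346). Of the 16 measured targets 11 lay below 0 and 5 above it, where 3887 of all 6765 genes lay below 0 and 2878 above it. The median of the targets was -0.15, against -0.04 over all genes. FN1, the matrix protein fibronectin, averaged 10.90 ± 0.22 in LP and 11.30 ± 0.38 in HP pigs (-0.39, exact permutation p = 0.0714).

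All 9 measured muscle fibre genes were above background on every array, and 0 of them passed (mean level 13.08 to 13.48 in LP and 12.99 to 13.94 in HP pigs). All 9 differences lay below 0, as did those of 3887 of all 6765 genes. Every measured adipocyte, fibroblast, endothelial, pericyte and macrophage marker was above background on every array too. Being above background therefore does not identify the tissue, which is taken from its label. Whole muscle also holds other cells, whose marker counts stand against 4.73% of all genes called in limma. Of 8 adipocyte markers 0 passed, and their mean level was 7.15 to 7.56 in LP and 6.68 to 7.74 in HP pigs. The smallest p was that of LEP (0.74, limma p = 0.0533, exact permutation p = 0.0887), and 3 differences lay above 0 and 5 below it. The study measured more intramuscular fat in the LP pigs. Of 7 fibroblast markers 0 passed in limma, and DCN, the same probe set as in the latency list, passed the exact test. Their mean level was 10.41 to 10.74 in LP and 10.44 to 11.24 in HP pigs, with a median difference of -0.26. FBN1, COL1A2, ACTA2, TAGLN and ENG also stand in both a marker list and a pathway list. None of 9 endothelial markers passed, at a mean level of 8.27 to 8.63 in LP and 8.19 to 8.76 in HP pigs, and none of 6 macrophage markers, at 7.03 to 7.81 in LP and 6.97 to 8.26 in HP pigs. One of 6 pericyte and smooth muscle markers, RGS5, was lower in LP pigs (-0.44, limma p = 0.00804, exact permutation p = 0.00866; -0.37 and not called without HP 1, HP 2 and HP 4), with a mean list level of 9.13 to 9.36 in LP and 9.25 to 9.76 in HP pigs, and 1 of 5 lymphocyte markers was called, CD79B, which was not above background. The part of these cells in the differences of BAMBI, ACVR1, TGFB2 and TGFBR2 was not tested.

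The hybridisation spike-ins averaged 11.58 ± 0.13 in LP and 11.84 ± 0.40 in HP pigs (exact permutation p = 0.186), and the 3′ minus 5′ signal of actin 5.53 ± 0.35 in LP and 5.96 ± 0.42 in HP pigs (exact permutation p = 0.123). Over the 11 arrays with the diet means removed, r between the spike-in level and the brightest probe set of each of the 10 member genes ran between -0.298 and 0.275, with an adjusted permutation p of 0.849 for all 10. Spearman's rho ran between -0.427 and 0.245 (adjusted permutation p 0.973 or higher). Without HP 2 and HP 4, r ran between -0.702 for TGFBR2 and 0.408 for ACVR2B, and within the HP pigs between -0.425 and 0.283. With the spike-in level as a covariate 5 of the 19 probe sets were called, against 6.85% of all probe sets, with the actin signal 5, against 6.59%, and 4, against 7.85%, when HP 1, HP 2 and HP 4, the arrays with the highest spike-in levels, were left out together.

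The genes that followed the 5 called probe sets above background most closely over the 11 arrays, diet means removed, were searched among 7863 probe sets with 1 symbol above background on all arrays, and r is given as a description. PLEKHA8 (r = 0.936), LGALS9 (0.890) and SLPI (0.856) were nearest to TGFB2 a. FMR1 (0.916), OAS1 (0.883) and PPFIBP2 (0.862) were nearest to TGFB2 d, and SYAP1 (0.929), OAS1 (0.847) and FMR1 (0.801) to TGFB2 c. The last pair of TGFB2 probe sets thus shared OAS1 and FMR1, and TGFB2 a shared none of its 3 with them. VPS16 (0.899), ADCK2 (0.888) and MINK1 (0.848) were nearest to BAMBI, and RND3 (0.808), C9H11orf57 (0.796) and STAR (0.789) to ACVR1.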

How the data were processed

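Log2 levels, 1 per probe set and array, were used as the authors deposited them for 11 Affymetrix Porcine Genome arrays, 1 per pig. The arrays were hybridised with amplified and biotin-labelled cDNA from total RNA, extracted with phenol and guanidine isothiocyanate. The study's methods name R, Bioconductor and puma, and how background was removed and arrays were normalised is not given in the sources used here. Every array has a median of 6.72, and nothing further was done to the values. Pigs were grouped by their diet labels. Of 24123 probe sets, 124 controls were left out. Of the rest, 10069 carry 1 symbol in the platform annotation, 198 several and 13732 none, and the 19 annotated member probe sets have the same symbol in RefSeq. No array column was left unused. Authors' fold changes and P-like values were not used.

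LP minus HP was fitted for all 23999 probe sets with limma 3.58.1 in R 4.3.3 (two-sided, constant prior) and called where p before adjustment was 0.05 or less, as in the study, whose puma test needs probe-level uncertainty. Adjusted p are Benjamini-Hochberg over all probe sets, or over the isoform pairs or correlations of a family. Single members and isoform differences were tested by exact permutation over the 462 splits of the pigs (two-sided), and correlations by 1e+05 permutations within diets. A probe set was above background on an array where it exceeded the highest of 23 negative controls there (1.96 to 3.58, which left 74.9% to 85.3% of probe sets above). Fold changes are on the scale of the deposited levels, and the number of arrays limits their precision. In data simulated for this comparison over 23999 probe sets, 56.7% of 1.5-fold, 74.6% of 2-fold and 89.4% of 4-fold changes were recovered, and 5.04% of unchanged probe sets were called. The changed probe sets were drawn from all levels, background included, and the noise was independent between probe sets. These rates are therefore not those of the members.

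The members and lists were chosen with earlier results of these data known. Named are every member probe set, the called genes of each pathway list or the 1 with the smallest p, and the 3 genes with the highest r to each called probe set above background on all arrays. FN1, RGS5, DCN, LEP and the THBS1 probe set were named after their values were seen. Each list gene was read by its brightest probe set with 1 symbol. Alternatives were quantile normalization, centring on the array median, leaving out probe sets below the median, raising values to the 20th percentile, array weights, a trended robust prior, a block of the replicate number, spike-in level or actin 3′ minus 5′ signal as a covariate, the exact test, the mean of a gene's probe sets, leaving out each pig, and leaving out HP replicates 1, 2 and 4. Reading TGFB2 or TGFB1 by other probe sets was added after the values were seen.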

Additional observations from a re-analysis of the deposited data

Results flagged for a closer look

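Single pigs far from their own diet group were searched for in each diet over 48 sets of member levels and differences between members, by the gap of Dixon's test, with 95% limits of 0.71 for 5 pigs and 0.625 for 6. Chance marks about 1 in 20 such sets, and 3 of 48 were marked. By the probe set TGFB1 a, LP 5 had a log2 level of 6.42, the lowest of its diet, with the other LP pigs between 7.00 and 7.15 (Q = 0.798). By the same probe set HP 1 had 6.86, with the other HP pigs between 7.15 and 7.22 (Q = 0.803). By the probe set TGFBR1 b, LP 5 had 5.77, the highest of its diet, with the other LP pigs between 4.92 and 5.12 (Q = 0.768).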

How the results depend on the processing

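Of 628 alternatives of single probe sets of members and named pathway and marker genes, 551 kept direction and side of the threshold, 31 lost the call, 32 gained one and 14 changed sign. Of 246 for counts and group differences, 201 stayed, 12 lost the call, 1 gained one, 1 changed sign and 31 moved. ACVR2A b had -0.0039 after quantile normalization, -0.067 with array weights, -0.031 with the spike-in and -0.056 with the actin covariate, -0.040 without HP replicates 1, 2 and 4, and -0.045 to 0.064 with 1 pig left out. TGFBR3 had -0.0067 with the actin covariate, TGFB3 b 0.0079 with low values raised, TGFB2 b -0.016 to 0.15 and TGFBR1 b -0.046 to 0.17 with 1 pig left out. Ligands minus receptors lay between -0.13 and 0.028 with 1 pig left out, above 0 without HP 2.

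Called member probe sets numbered 3 of 10 with dim probe sets left out (30.0%, 0 lower), against 5.92% of all 12000 then tested. By the exact test 4 of 19 were called, 1 of them lower, against 5.4% of all. With 1 pig left out they numbered 1 to 7 of 19 (5.26% to 36.8%), against 4.44% to 6.34% of all. Of these 1 to 4 were higher and 0 to 4 lower, with 0 lower without LP 5 and 1 lower without LP 3, LP 4, HP 3 or HP 6. All called probe sets numbered 710 of 12000 (277 higher, 433 lower) with dim ones left out. Of 23999 they numbered 1884 (1129 higher) without HP replicates 1, 2 and 4. Those higher numbered 905 with the spike-in and 900 with the actin covariate. With 1 pig left out 1066 to 1521 were called (424 to 755 higher, 569 to 1003 lower). Pathway genes called lower numbered 7 of 35 with dim probe sets left out (3.83% of all genes were then called lower), and of 48 they numbered 6 with low values raised (3.40%), 7 with the trended prior (3.68%), 5 with the spike-in (3.12%) and 4 with the actin covariate (2.48%), 1 without HP replicates 1, 2 and 4 (2.25%), and 2 to 6 with 1 pig left out (6 without HP 5, 5 without LP 1, and 4 without LP 2, HP 2, HP 3 or HP 6). Those called higher numbered 1 with the actin covariate and 0 to 1 with 1 pig left out (1 without HP 4). The cause of these shifts was not tested.

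TGFB2 gained 0.78 on TGFB1 (exact p = 0.0714) and 0.81 on TGFB3 (exact p = 0.125) without HP replicates 1, 2 and 4, and 0.44 to 0.83 and 0.70 to 1.004 with 1 pig left out. Read by TGFB2 b it gained 0.25 and 0.40, and 0.38 with TGFB1 by its dimmer probe set. TGFB3 minus TGFB1 was -1.02 (exact p = 0.0325) over the mean of all probe sets, one of which is at background, where TGFB2 gained 0.42 on TGFB1 and 1.44 on TGFB3, and -0.30 to -0.0014 with 1 pig left out.

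The replicate numbers do not pair the pigs, since same-numbered pigs had r between -0.068 and 0.085 and 1 of 5 was nearest to its own number. With the number as a block, 5 of 19 member probe sets were called (26.3%, against 5.13% of all), 2 of them TGFB2 and TGFBR1 probe sets that were higher. TGFB2 then gained 0.60 on TGFB1 and 0.81 on TGFB3 (exact p = 0.0625 each, the smallest 5 pairs allow). Under the block TGFB2 d had 0.46 and TGFB2 c 0.37, neither called.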
